A study of Mus musculus with 2 samples.

Results

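The Wnt pathway genes described here are 50 of the 21951 protein-coding genes of the GENCODE M21 annotation of the mouse genome (build GRCm38). They were chosen by symbol, and comprise 19 Wnt ligand genes, 12 receptor genes (10 Fzd genes, Lrp5 and Lrp6), 8 genes of secreted antagonists (Dkk1 to Dkk4, Sfrp1, Sfrp2, Sfrp4 and Sfrp5) and 11 genes that act inside the cell (Ctnnb1, Apc, Axin1, Axin2, Dvl1, Dvl2, Dvl3, Lef1, Tcf7, Tcf7l1 and Tcf7l2). No measured value entered the symbol rule, but the set was chosen with earlier results of these data known. TET2 peaks of adipocytes were assigned to these genes by the midpoint of the peak: within 1 kb of any annotated transcription start site (TSS) of the gene, called a promoter peak here, 1 to 3 kb from one, or elsewhere in the gene body. Of the 14103 peaks of the list, 48 (0.340%) belonged to a Wnt pathway gene, and none of them was shared by a pair of these genes.

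TET2 is an enzyme that oxidizes 5-methylcytosine, found mostly where a cytosine precedes a guanine (CpG), on the way to demethylated DNA. Its chromatin sites were mapped by ChIP-seq, which sequences the DNA recovered with an antibody against the protein, in cells grown from the stromal vascular fraction of mouse inguinal white fat, expanded as stem cells and turned into adipocytes in culture with IBMX, dexamethasone and insulin, followed by insulin. From these cells came 1 library of TET2-bound DNA and 1 of input chromatin, with no untreated, undifferentiated or TET2-deficient group, and the sources used here give no strain, age or day of harvest for them. The study's methods state that its mice were male. There is no replicate, so no difference could be set against replicate error and no p-value was computed. The intervals given with shares are exact (Clopper-Pearson) 95% binomial intervals and cover counting error only. The value of each peak is the −log10 p with which the peak caller set the TET2 library against background; it ran from 3.07 to 335 over the whole list with a median of 6.21, and 2182 peaks (15.5%) lay under 5. The p-value setting stated for the peak calling corresponds to a −log10 p of 5, so these peaks do not meet it, and no reason is given in the sources used here. All deposited peaks were used, and counts without the 2182 stand beside the result they change. The list holds no read totals, so the depth behind a peak is unknown.

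Wnt proteins are secreted, lipid-modified ligands that bind Frizzled receptors together with the co-receptors LRP5 and LRP6. In the canonical branch this stops a complex of APC, AXIN and kinases from destroying β-catenin (Ctnnb1), which then joins TCF/LEF factors on DNA and switches on target genes, and Dickkopf (Dkk) and secreted Frizzled-related (Sfrp) proteins hold the signal back outside the cell. In fat tissue canonical Wnt signalling is known as a brake that keeps precursor cells from becoming adipocytes. A peak is a place where TET2 fragments were enriched; it does not say whether the gene was active, and neither RNA nor methylation of these genes was analysed here.

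The sequences under 6 of these peaks are shown first because the largest values of the pathway lie there: the promoter peak with the largest −log10 p in each of the 4 roles (Wnt3, Fzd1, Dkk3 and Tcf7l2), and the gene body peaks with the largest values (Wnt7b and Wnt5b). Each is a stretch of 150 bases from within the peak, read 5′ to 3′ on the strand of the gene from GRCm38, in lower case with the CpG dinucleotides in capitals, since CpG is the context in which TET enzymes find most of their substrate. The Wnt3 stretch (chr11:103774000-103774149, plus strand) ends at the base before the TSS, and the Dkk3 stretch (chr7:112159179-112159328, minus strand) lies wholly upstream of its TSS. The Fzd1 stretch (chr5:4757017-4757166, minus strand) is coding sequence of the only exon. The Tcf7l2 stretch (chr19:55895635-55895784, plus strand) starts 125 bp downstream of a TSS inside the gene.
Wnt3: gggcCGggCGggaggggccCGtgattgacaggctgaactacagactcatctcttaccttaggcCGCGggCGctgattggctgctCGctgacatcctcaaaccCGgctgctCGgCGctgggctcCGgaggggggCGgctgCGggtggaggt
Fzd1: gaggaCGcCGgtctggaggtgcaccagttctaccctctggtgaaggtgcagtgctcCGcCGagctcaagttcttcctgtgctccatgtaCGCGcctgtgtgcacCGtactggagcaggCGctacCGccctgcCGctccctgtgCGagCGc
Dkk3: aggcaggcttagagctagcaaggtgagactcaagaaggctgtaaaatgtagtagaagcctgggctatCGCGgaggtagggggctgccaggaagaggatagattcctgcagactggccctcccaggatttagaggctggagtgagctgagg
Tcf7l2: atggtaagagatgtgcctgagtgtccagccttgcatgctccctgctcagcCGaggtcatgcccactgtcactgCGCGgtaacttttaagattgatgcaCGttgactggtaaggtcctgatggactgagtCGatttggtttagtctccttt
The Wnt7b stretch (chr15:85537759-85537908, minus strand) runs from an intron into the last coding exon, and the Wnt5b stretch (chr6:119440338-119440487, minus strand) lies at the exon listed as 4 of 5.
Wnt7b: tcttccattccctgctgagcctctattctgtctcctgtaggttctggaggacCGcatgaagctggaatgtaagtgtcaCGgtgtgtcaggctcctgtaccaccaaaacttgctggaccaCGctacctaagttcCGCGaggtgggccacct
Wnt5b: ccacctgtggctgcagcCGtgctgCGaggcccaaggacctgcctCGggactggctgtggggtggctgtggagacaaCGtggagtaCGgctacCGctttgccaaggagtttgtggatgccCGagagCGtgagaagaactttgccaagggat
The stretches differ in CpG number. The Wnt3 stretch holds 13 CpGs at a GC content of 68.7% and the Fzd1 stretch 12 at 65.3%, whereas the Dkk3 stretch holds 2 at 55.3%. The Wnt5b stretch has 8 CpGs, and those of Tcf7l2 and Wnt7b have 5 each.

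A promoter peak was found for 21 of the 50 Wnt pathway genes, or 42.0% (28.2% to 56.8%), against 24.6% of all protein-coding genes. Peaks 1 to 3 kb from a TSS occurred at 7 genes, or 14.0% (5.82% to 26.7%), against 5.05% of all protein-coding genes, and peaks in the gene body at 13 genes, or 26.0% (14.6% to 40.3%), against 13.0%. Counting every class, 31 genes (62.0%, 47.2% to 75.3%) had a peak and 19 had none, where 36.4% is the share over all protein-coding genes. With every deposited peak and every annotated TSS, the share of all genes lies below the interval of the Wnt pathway genes in each of the 4 comparisons. For promoter peaks this was lost under several other choices. With peaks of a −log10 p of at least 5 the share was 32.0% (19.5% to 46.7%) against 22.1% of all protein-coding genes, with TSSs of coding transcripts or with RefSeq it was 36.0% (22.9% to 50.8%) against 23.1%, and with 1 TSS per gene 28.0% (16.2% to 42.5%) against 20.1%, each inside the interval. The genes also differ from the average gene in other properties, given below, and no test was made.

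The 48 peaks divide into 21 promoter peaks, 8 peaks at 1 to 3 kb and 19 gene body peaks. Each of the 21 genes had a single promoter peak. The nearest TSS of any gene belonged to a Wnt pathway gene for 20 of the 21, the exception being Lef1. Of all protein-coding genes, 5391 had a promoter peak, and 4708 when a peak was given only to the gene of the nearest TSS. No promoter peak of a Wnt pathway gene had the TSS of another protein-coding gene within 1 kb. Over all protein-coding genes, 5170 promoter peaks made 5679 pairs of a gene and a peak, so some were shared. The plot of peaks around the TSS shows that most promoter peaks lay close to it, 12 at or downstream (57.1%) and 9 upstream. Over the promoter peaks of all protein-coding genes 69.4% were at or downstream. The share of the Wnt pathway genes rests on 21 peaks, and whether it differs was not tested.

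**Figure D1:**
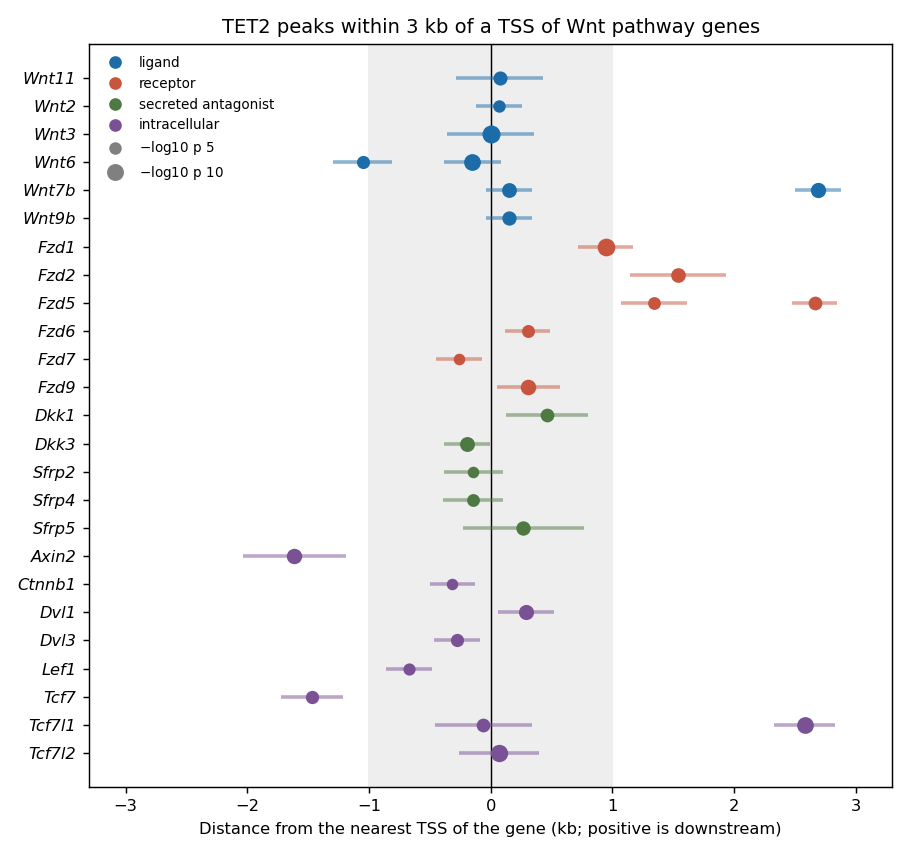
TET2 peaks within 3 kb of a TSS, 1 row per Wnt pathway gene with such a peak. The x axis is the distance from the nearest TSS of the gene in kb, positive downstream; bars span the called peaks, points mark their midpoints, colours give the role of the gene, point size grows with −log10 p, and the grey band is the 1 kb window. Wnt3 has its midpoint at the TSS and Fzd1 lies just inside the window at 943 bp.

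The secreted antagonists had a promoter peak in 5 of 8 genes (62.5%, 24.5% to 91.5%), the intracellular genes in 6 of 11 (54.5%, 23.4% to 83.3%), the receptors in 4 of 12 (33.3%, 9.92% to 65.1%) and the ligands in 6 of 19 (31.6%, 12.6% to 56.6%). The intervals of the 4 roles overlap, and each holds the share of all protein-coding genes, that of the antagonists only just. For gene body peaks the order differed. The ligands had one in 8 of 19 genes (42.1%, 20.3% to 66.5%, above the 13.0% of all protein-coding genes), the receptors in 1 of 12, the antagonists in 1 of 8 and the intracellular genes in 3 of 11.

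**Figure D2:**
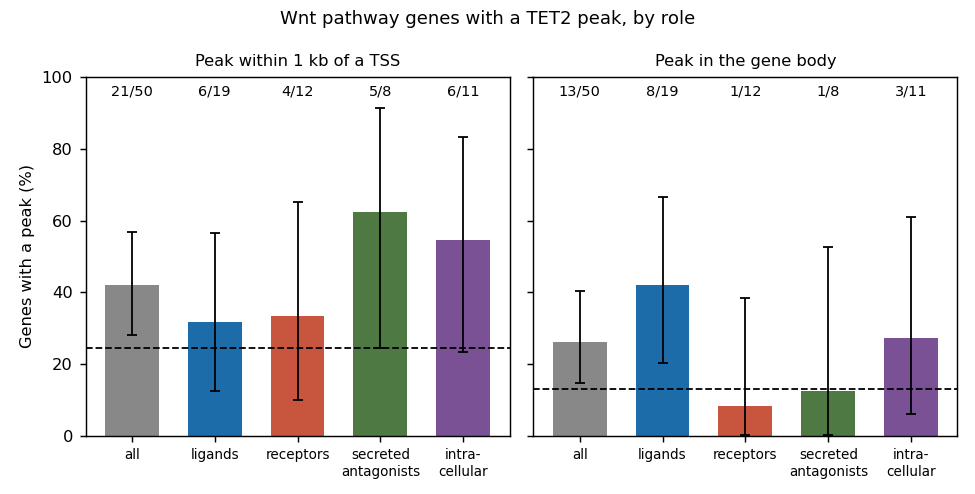
Share of Wnt pathway genes with a TET2 promoter peak (left) and a gene body peak (right), in percent, for all 50 genes and by role. Error bars are exact 95% binomial intervals, the fractions above give the genes with a peak over all genes of the role, and the dashed line is the share of all protein-coding genes (24.6% left, 13.0% right).

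Among the ligands, Wnt3 (ENSMUSG00000000125) had the largest promoter peak, with a −log10 p of 11.5, rank 528 of the list. It spans chr11:103773791-103774509, and its midpoint coincides with the only annotated TSS. The gene held 4 more peaks in its body, 9282, 21512, 30264 and 37392 bp downstream, with −log10 p of 5.13, 8.28, 7.05 and 8.56. Wnt3 was thus the Wnt pathway gene with the most peaks. The first 3 of the gene body peaks lie in an intron and the last in coding exon 3 of 5.

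Wnt6, Wnt10a and Wnt10b are known as ligands that restrain the differentiation of fat cell precursors. Wnt6 had a promoter peak with a −log10 p of 9.80 at chr1:74782055-74782519, rank 1321, 152 bp upstream of a TSS inside the gene, and the midpoint lies in coding exon 2 of 4. Counting only TSSs of coding transcripts, Wnt6 had no promoter peak. A further peak with 5.59 lay 1052 bp upstream of the first TSS of Wnt6, just outside the 1 kb window. Wnt10a, its neighbour on the same strand, had no promoter peak but a gene body peak of 7.94 at chr1:74800546-74801033, in coding exon 3 of 4. Wnt10b had no peak of any class, and the nearest peak of the list lay 28809 bp from its TSS. The 3 ligands best known in fat therefore gave 3 different patterns.

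Wnt7b (ENSMUSG00000022382) carried a peak of every class. Its promoter peak (chr15:85577735-85578109, −log10 p 7.41) lay 148 bp downstream of a TSS inside the gene, and a second peak of 7.92 lay 2691 bp downstream of another. The gene body held a peak of 7.53 in coding exon 2 of 4 and one of 13.3 in coding exon 4 of 4. The latter, at chr15:85537237-85538431, is 1195 bp wide with 59 CpGs and ranks 241 of the list. It had the largest −log10 p and the greatest width of the 48 peaks.

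Wnt5b (ENSMUSG00000030170), a ligand known mainly for signalling outside the β-catenin branch, had gene body peaks only. The largest, at chr6:119440155-119440671, had a −log10 p of 13.2 and rank 251 and lay in coding exon 4 of 5. The others had 6.21, in coding exon 5 of 5, and 7.34, in an intron. Its close relative Wnt5a had no peak, with the nearest at 33146 bp. Wnt7a had a gene body peak of 9.94 in coding exon 3 of 4 (chr6:91394368-91394858, rank 1246), and Wnt9a one of 6.16 in coding exon 3 of 4 (chr11:59328446-59328948).

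The remaining ligand genes with promoter peaks had smaller values. Wnt9b had a −log10 p of 6.80 at 151 bp downstream of the TSS (chr11:103749483-103749857, rank 5881), and a gene body peak of 6.47 in its last coding exon. Wnt11, a ligand of the non-canonical branch, had 6.62 at 74 bp downstream of a TSS inside the gene (chr7:98838616-98839328, rank 6264) and 6.63 in coding exon 5 of 5. Wnt2 had 4.95 at 69 bp downstream (chr6:18030329-18030703, rank 11923). The values of Wnt9b, Wnt11 and Wnt2 lie within the ordinary range of the list. No peak was assigned to Wnt1, Wnt2b, Wnt3a, Wnt4, Wnt5a, Wnt8a, Wnt8b, Wnt10b or Wnt16, for which the nearest peak lay between 11432 bp (Wnt4) and 91044 bp (Wnt2b) from a TSS.

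Several Wnt genes sit next to each other in the genome, and the 4 neighbouring pairs differed. Wnt3 and Wnt9b, which together span 90594 bp of chromosome 11, held 7 peaks, of which 5 belonged to Wnt3. Wnt6 and Wnt10a span 32288 bp of chromosome 1 and held 3. Wnt3a and Wnt9a span 85520 bp of chromosome 11 and held 1, at Wnt9a, and Wnt1 with Wnt10b, over 23126 bp of chromosome 15, held none. Spans of similar length thus held between 7 and 1 peaks, and neighbours share chromatin surroundings, so the genes of a pair are not independent cases.

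**Figure D3:**
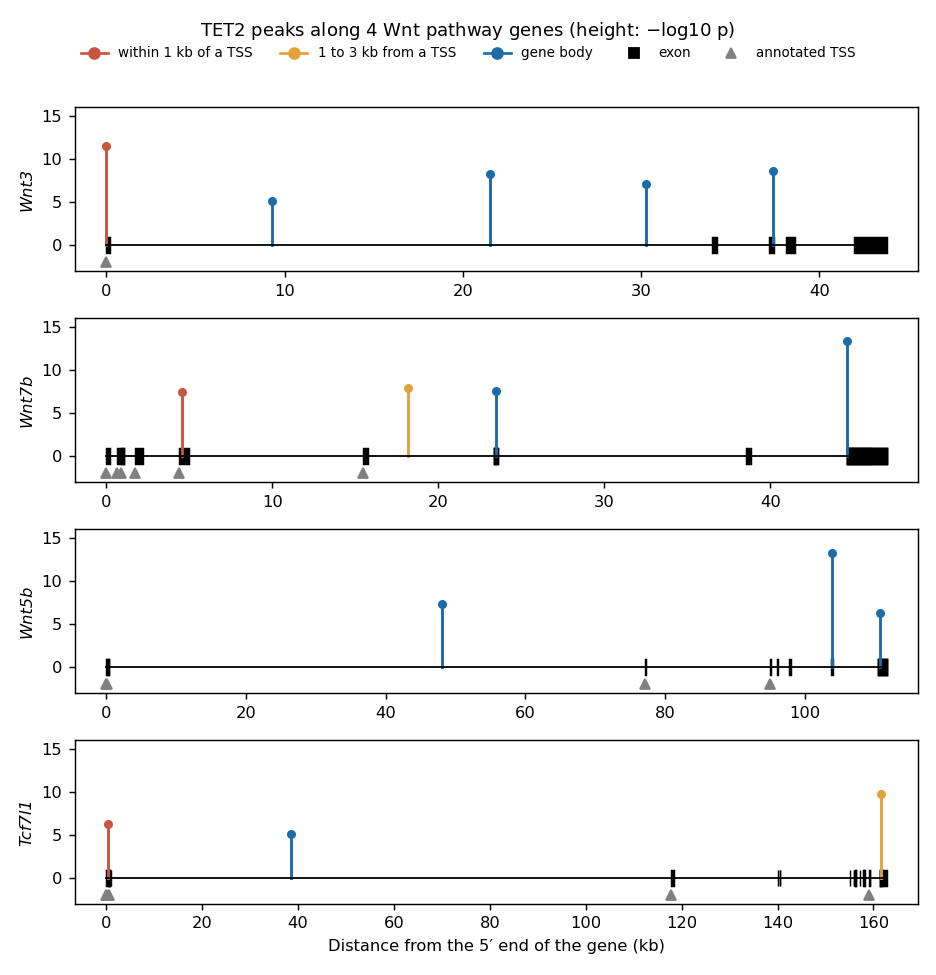
TET2 peaks along Wnt3, Wnt7b, Wnt5b and Tcf7l1. The x axis is the distance from the 5′ end of the gene in kb, the height of each stem is the −log10 p of the peak, colours give its class, black boxes are exons of all transcripts and triangles are annotated TSSs. The largest stems of Wnt7b (13.3) and Wnt5b (13.2) stand near the 3′ end of the gene.

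Frizzled receptors are membrane proteins whose outer cysteine-rich domain binds the ligand, and many of their genes have a single coding exon. Fzd1 (ENSMUSG00000044674) had the largest receptor peak, with a −log10 p of 11.1, rank 662, at chr5:4756866-4757318. Its midpoint is 943 bp downstream of the TSS, inside the coding sequence, and is the promoter peak nearest to the edge of the 1 kb window. Fzd9 had 8.24 at 310 bp downstream (chr5:135250665-135251176, rank 3081), also in its only coding exon. Fzd6 had 5.45 at 303 bp downstream (chr15:39006449-39006823, rank 9565), within 1 kb of a TSS of the bidirectional noncoding gene Gm26704. Fzd7 had 4.16 at 259 bp upstream (chr1:59481978-59482352, rank 12631). Among the 4 promoter peaks of receptor genes, that of Fzd7 was lower than 89.6% of the list, and that of Fzd1 was lower than 4.69%.

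A pair of further Frizzled genes had peaks only outside the window, in their coding sequence. Fzd2 had a −log10 p of 7.21 at 1537 bp (chr11:102605539-102606327), and Fzd5 had 6.26 at 2661 bp and 5.29 at 1341 bp downstream of the TSS. With Fzd1 and Fzd9, 4 Frizzled genes therefore had peaks over coding sequence. Of the co-receptor genes, Lrp5 had a peak of 6.98 in the gene body (chr19:3630214-3630588), in a coding exon, and Lrp6 had none. Fzd3, Fzd4, Fzd8 and Fzd10 also had none, with the nearest peak between 37444 bp (Fzd3) and 167909 bp (Fzd10) from a TSS.

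Of the Dickkopf genes, Dkk3, the divergent member of the family, had the largest value, a −log10 p of 7.54 at 197 bp upstream of its TSS (chr7:112159067-112159441, rank 3989). Dkk1, whose product blocks LRP5 and LRP6, had 6.21 at 464 bp downstream (chr19:30548864-30549538, rank 6928), in coding exon 1 of 4. Dkk2 had only a gene body peak of 5.13 in an intron (chr3:132117319-132117693), and Dkk4 had none.

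The Sfrp proteins bind Wnt ligands, and SFRP5 is known as a protein secreted by fat cells. Sfrp5 had a −log10 p of 6.90 at 269 bp downstream of the TSS (chr19:42201488-42202479, rank 5701). This peak is 992 bp wide, the widest of the 21 promoter peaks, and holds 82 CpGs. Sfrp4 had 5.32 at 148 bp upstream (chr13:19622711-19623202, rank 9711), and Sfrp2 had 4.12 at 145 bp upstream (chr3:83765934-83766418, rank 12682). Of these 3 values, that of Sfrp5 alone lies above 6.83, the median of the promoter peaks of all protein-coding genes. Sfrp1 had no peak within 154397 bp of a TSS.

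The 4 TCF/LEF genes, which encode the DNA-binding partners of β-catenin, each had at least 1 peak. Tcf7l2 (ENSMUSG00000024985), whose human counterpart is a known diabetes risk gene, had a −log10 p of 10.5 at chr19:55895247-55895906, rank 917, 66 bp downstream of a TSS inside the gene. Tcf7l1 had a promoter peak of 6.24 at 60 bp upstream (chr6:72788614-72789410, rank 6880) with 89 CpGs, a peak of 9.76 at 2578 bp downstream of a TSS near its 3′ end, in the last coding exon, and an intronic one of 5.13. Lef1 had 4.73 at 672 bp upstream of a TSS inside the gene (chr3:131111938-131112312, rank 12257), which is 35 bp from a TSS of the antisense gene Gm43352. Tcf7 had 5.78 at 1469 bp upstream of the TSS and 7.74 in an intron, and no promoter peak. The plot of peaks along genes shows the 2 larger Tcf7l1 peaks at opposite ends of the gene and the intronic one between them.

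Upstream of these factors, Dvl1 and Dvl3 encode Dishevelled proteins, which relay the signal from the receptor. Dvl1 had a −log10 p of 7.77 at 290 bp downstream of a TSS of a noncoding transcript inside the gene (chr4:155854631-155855094, rank 3744). Dvl3 had 5.68 at 275 bp upstream (chr16:20516520-20516894, rank 9244) and 6.18 in coding exon 15 of 16. Ctnnb1, the gene of β-catenin, had 4.12 at 315 bp upstream of a TSS inside the gene (chr9:120950587-120950961, rank 12682), in an intron. Counting only TSSs of coding transcripts, Ctnnb1 and Dvl1 had no promoter peak, like Wnt6. Axin2, a scaffold of the destruction complex and itself a known Wnt target gene, had 8.11 at chr11:108941584-108942430, in a coding exon 1614 bp upstream of a TSS inside the gene and 8 bp from the TSS of the antisense gene Gm11670. Apc, Axin1 and Dvl2 had no peak, with the nearest at 15537, 25589 and 19191 bp. Of the destruction complex members in this set, Axin2 alone carried a peak.

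The size of the peaks was ordinary for the list. The promoter peaks of Wnt pathway genes had a median −log10 p of 6.62 (4.12 to 11.5), against 6.83 over the promoter peaks of all protein-coding genes. Peaks at 1 to 3 kb had a median of 6.73 against 6.53, and gene body peaks 7.05 against 6.21. In the top 10% of the list, at a −log10 p of at least 9.72, were 8 of the 48 peaks, those at Wnt7b, Wnt5b, Wnt3, Fzd1, Tcf7l2, Wnt7a, Wnt6 and Tcf7l1, and 5 of these genes encode ligands. Under 5 were 5 of the 21 promoter peaks, at Wnt2, Lef1, Fzd7, Sfrp2 and Ctnnb1, and no peak of another class. Over all protein-coding genes, 566 of 5170 promoter peaks, 150 of 1063 peaks at 1 to 3 kb and 634 of 3655 gene body peaks were under 5. The peaks were 375 to 1195 bp wide with a median of 460 bp, against 426 bp over the list. None was at least 80% repeat-masked, against 2114 of the 14103 peaks of the list. Such peaks are rarer at genes. Over all protein-coding genes they were 20 of 5170 promoter peaks, 43 of 1063 peaks at 1 to 3 kb and 386 of 3655 gene body peaks.

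**Figure D4:**
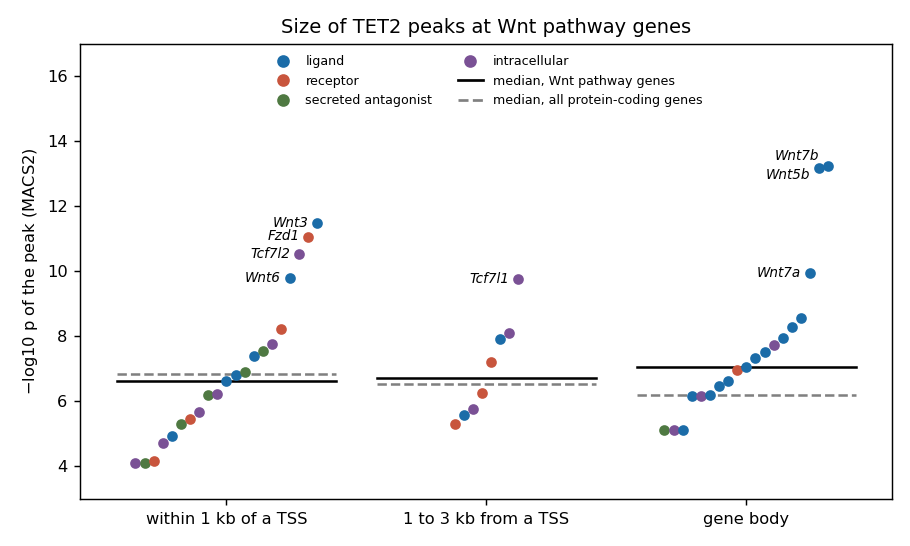
The −log10 p of each TET2 peak at a Wnt pathway gene, by class, ordered from low to high within the class and coloured by role. Solid lines are the medians of the Wnt pathway genes (6.62, 6.73 and 7.05) and dashed lines the medians over the peaks of all protein-coding genes (6.83, 6.53 and 6.21); the named points are the 8 peaks in the top 10% of the list.

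Wnt pathway genes have promoters rich in CpG, and TET2 promoter peaks were more frequent there over all genes. The CpG ratio, the observed number of CpGs over that expected from the base composition, within 500 bp of the 5′ end of the gene had a median of 0.76 for the 50 genes and 0.55 for all protein-coding genes. A ratio of at least 0.6, called CpG-rich here, was found at 38 Wnt pathway genes (76.0%) and at 45.9% of all. Among CpG-rich promoters, 16 of 38 Wnt pathway genes had a promoter peak (42.1%, 26.3% to 59.2%), against 38.8% of all such genes, a share inside the interval. Among the others it was 5 of 12 (41.7%, 15.2% to 72.3%), against 12.5%. These 5 genes are Ctnnb1, Dkk1, Dkk3, Sfrp4 and Wnt7b, with CpG ratios of 0.40 to 0.50. The peaks of Ctnnb1 and Wnt7b, and among the CpG-rich genes those of Dvl1, Lef1, Tcf7l2, Wnt6 and Wnt11, lie at a TSS inside the gene, where the ratio at the 5′ end does not describe the sequence. Counting only the TSS at the 5′ end, 11 of 38 CpG-rich Wnt pathway genes had a promoter peak (28.9%, 15.4% to 45.9%) against 35.2% of all such genes, and 3 of 12 of the others (25.0%, 5.49% to 57.2%) against 7.30%. Both shares over all genes are then inside the interval, and the former lies above the value of the Wnt pathway genes.

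Within the set, the CpG ratio did not separate genes with a promoter peak from those without. Its median was 0.75 in the 21 genes with a peak and 0.79 in the 29 without, whereas over all protein-coding genes it was 0.74 with and 0.41 without. Genes with very CpG-rich promoters and no promoter peak include Lrp6 (1.05), Sfrp1 (1.04) and Fzd3 (1.03). At the other end, Wnt8a (0.25), Dkk4 (0.31), Wnt8b (0.33) and Wnt16 (0.35) had no peak either. The plot of CpG ratio shows both groups over much of the same range.

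**Figure D5:**
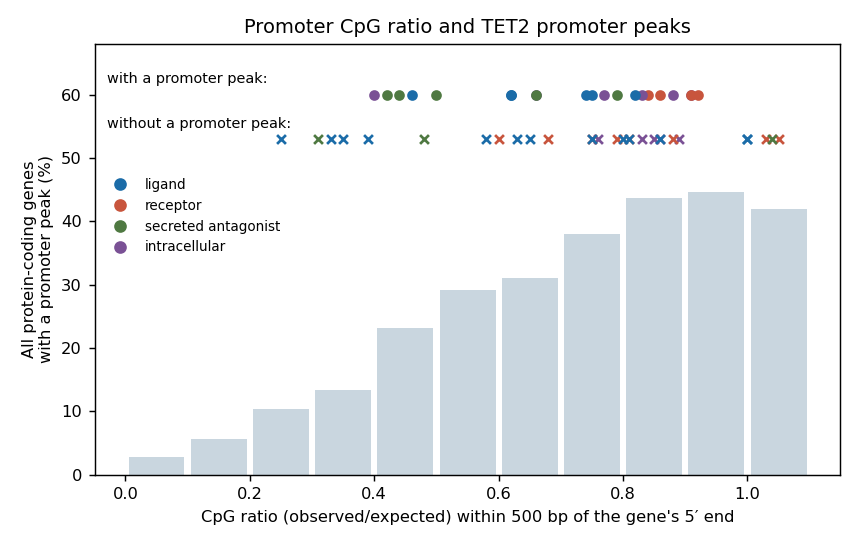
CpG ratio within 500 bp of the 5′ end of the gene (x axis) and TET2 promoter peaks. Bars give the share of all protein-coding genes with a promoter peak in each bin of the ratio (y axis, percent); circles and crosses mark the Wnt pathway genes with and without a promoter peak, coloured by role, at heights that carry no value. The bars rise from 2.76% in the lowest bin to 44.6% in the bin from 0.9, while the circles run from 0.40 to 0.92 and the crosses from 0.25 to 1.05.

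The number of annotated TSSs and the length of a gene also bear on how often a peak can be assigned to it. The Wnt pathway genes had a median of 2 TSSs against 3 for all protein-coding genes, and a median length of 21520 bp against 17403 bp. Counting a single TSS at the 5′ end of each gene, 14 Wnt pathway genes had a promoter peak, the 28.0% given above, whose interval holds the 20.1% of all protein-coding genes. Ctnnb1, Dvl1, Lef1, Tcf7l2, Wnt6, Wnt7b and Wnt11 were then no longer among them. Among genes of at least 20 kb, 11 of 27 Wnt pathway genes had a gene body peak (40.7%, 22.4% to 61.2%). The 23.4% of all protein-coding genes of that length lies inside this interval, unlike the 13.0% of all genes beside the whole set. Of the 23 shorter Wnt pathway genes, 2 had a gene body peak (8.70%, 1.07% to 28%), and the share over all shorter genes was not computed.

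Of the 19 gene body peaks, 12 had their midpoint in a coding exon of the gene (63.2%, 38.4% to 83.7%), against 24.9% of the gene body peaks of all protein-coding genes. This comparison was chosen after the positions had been seen. The intervals for these peaks count them as independent, although Wnt3 holds 4, Wnt5b 3 and Wnt7b 2, so they are too narrow. For the ligands it was 10 of 14 (71.4%, 41.9% to 91.6%), at Wnt3, Wnt5b, Wnt7a, Wnt7b, Wnt9a, Wnt9b, Wnt10a and Wnt11. Coding exons make up 2.83% of the gene bodies of the Wnt pathway genes outside the promoter and 1 to 3 kb windows, 2.89% of those of the ligands and 2.23% of those of all genes. Per Mb, the coding exons of Wnt pathway genes held 277 peaks and the rest of their bodies 4.71, and over all protein-coding genes the values were 50 and 3.44. The coding exons of the ligands have a GC content of 60.3% against 50.4% for coding exons of all genes, and its part in the result was not tested.

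Base composition of the peaks followed their class. Promoter peaks of Wnt pathway genes had a median GC content of 64.3% and a CpG ratio of 0.74, against 66.1% and 0.79 for the promoter peaks of all protein-coding genes. Gene body peaks had 60.5% and 0.47, against 56.4% and 0.37. The promoter peaks were thus slightly poorer in CpG than promoter peaks in general, and the gene body peaks richer.

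The windows of 100 bp each side of the midpoint were searched on both strands for 3 motifs. GGGCGG, the core bound by SP1, was present in 16 of 48 peaks (33.3%, 20.4% to 48.4%) against 26.6% of all peaks, and in 9 of the 21 promoter peaks (42.9%, 21.8% to 66.0%) against 47.0% of the promoter peaks of all protein-coding genes. CTTTGAT, bound by TCF/LEF factors, was present in 1 of 48 (2.08%, 0.0527% to 11.1%) against 1.79% of all peaks. That window belongs to Tcf7, itself a TCF/LEF gene. TTGCNNAA, the palindromic form bound by C/EBP factors, was found in 0 of 48, for which the interval allows up to 7.40%, against 4.39% of all peaks. The share over all peaks lies inside the interval for each motif.

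A further list of 77 genes of the pathway, outside the symbol rule, was examined in the same way. A promoter peak was found for 23 (29.9%, 20% to 41.4%), an interval that holds the 24.6% of all protein-coding genes. A peak at 1 to 3 kb was found for 9 (11.7%, 5.49% to 21%, against 5.05%), a gene body peak for 18 (23.4%, 14.5% to 34.4%, against 13.0%) and a peak of any class for 39 (50.6%, 39% to 62.2%, against 36.4%). The share of all genes lies below the interval in each of these, unlike for promoter peaks. No peak was found for 38. By role, promoter peaks occurred at 2 of 3 genes of ligand processing (Porcn and Notum), 2 of 9 R-spondin and receptor turnover genes (Lgr5 and Znrf3), 2 of 7 other receptors (Ror2 and Gpc4) and 2 of 9 other extracellular inhibitors (Frzb and Draxin). Inside the cell they occurred at 1 of 11 genes of the destruction complex and its regulators (Csnk1d), 2 of 11 intracellular inhibitors (Cxxc4 and Ctbp2), 5 of 10 nuclear cofactors (Pygo1, Tle1, Tle2, Tle4 and Ep300) and 1 of 6 target genes (Cdx1). In the planar cell polarity branch, which orients cells within a sheet, 6 of 11 had one (Vangl1, Vangl2, Celsr1, Prickle1, Prickle2 and Daam2). For Draxin and Ep300 the TSS nearest to the promoter peak belongs to another gene. Only Lgr5, a receptor for R-spondins, had a promoter peak in the top 10% of the list, with a −log10 p of 11.4 at 57 bp upstream of the TSS.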

How the data were processed

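TET2 ChIP-seq was measured in 1 library, with 1 input library. Per the labels and the study's methods, the authors filtered reads, mapped them with Bowtie and called peaks with MACS2 (2.1.0) against the input. The labels name the build mm10 (GRCm38) and the methods text a later one; no deposited peak runs past a GRCm38 chromosome end and no midpoint lies in an assembly gap, so GRCm38 coordinates are used. The deposited list gives intervals and the −log10 p of each peak, with no summits or read totals, so depth and precision per peak are unknown and peaks were placed by their midpoints. The list names no unit; the column was read as −log10 p from its place in the study's peak annotation. The input was not examined separately.

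Peaks were assigned to genes of GENCODE M21 with Python 3.11.15, numpy 2.4.6, scipy 1.17.1 and pysam 0.24.0 (figures: matplotlib 3.10.9). A peak within 1000 bp of any TSS of a gene was a promoter peak, one up to 3000 bp its own class, and any other inside the gene a gene body peak; all protein-coding genes were the background. Placement was checked with simulated peaks at real genes, under the same distance rule. For motifs, only CTTTGAT was checked, planted in simulated sequence and searched with a separate pattern. The searches for GGGCGG and TTGCNNAA were not checked. Every member gene is named with its class; of the further list, genes are given with values if their promoter peak is in the top 10% of the list. The members and lists were chosen with earlier results of these data known. Alternatives were other windows, TSS sets, annotations, thresholds and motif windows.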

Additional observations from a re-analysis of the deposited data

How the results depend on the processing

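No paired analysis was possible because the design holds no replicate. Of 72 values under alternatives, of which the CpG-rich share with 1 TSS per gene was chosen after seeing the data, 51 stayed within the 95% interval of the reported value (shares and the median) or within 1.5 times of it (counts), and 21 moved. The share of all protein-coding genes with a promoter peak was 21.6% with a window of 500 bp, 26.9% with 2 kb, 25.3% when any base of the peak counted, 23.1% with TSSs of coding transcripts and also with RefSeq, 20.1% with 1 TSS per gene, 21.4% when a peak was given only to the gene of the nearest TSS, and 22.1% with a −log10 p of at least 5. The count of Wnt pathway genes with a promoter peak was then 19 with 500 bp, 25 with 2 kb, 21 with any base, 18 with coding transcripts, 18 with RefSeq, 14 with 1 TSS per gene, 20 with the nearest TSS only and 16 with a −log10 p of at least 5. With a −log10 p of at least 8 the share was 7.61%, and 5 Wnt pathway genes had a promoter peak (median 10.5), 2 a peak at 1 to 3 kb and 4 a gene body peak, and 6 of the further list a promoter peak; fewer peaks lower these counts by construction. Genes with a peak at 1 to 3 kb were 3 with the 2 kb window, 4 with TSSs of coding transcripts and 4 with the nearest TSS only, which also left 7 genes with a gene body peak. The share of all genes came to lie inside the interval of the Wnt pathway genes for peaks at 1 to 3 kb with the 2 kb window, any base, coding transcripts, 1 TSS per gene and the nearest TSS only, for gene body peaks with the nearest TSS only, and for every class with a −log10 p of at least 8. The SP1 motif share was 16.7% within 50 bp and 56.2% over the whole peak, and the C/EBP share 8.33% over the whole peak, as the searched length changes. The shares over all peaks given above are for 100 bp each side, so they cannot be set beside these values. With 1 library, no peak has been measured again, and those of Ctnnb1, Sfrp2 and Fzd7 have the smallest values. The cause of the other shifts was not tested.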

Other observations

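Counts for other signalling families stand beside those of the Wnt genes, with no test between them. Of 41 genes of the BMP and TGF-beta pathway, which also acts on fat cell precursors, 15 had a TET2 promoter peak (36.6%, exact 95% binomial interval 22.1% to 53.1%), among them Bmp7, Bmpr1a, Smad1, Smad3 and Nog, an interval that holds the 24.6% of all protein-coding genes. A gene body peak was found for 11 (26.8%, 14.2% to 42.9%), against 13.0% of all, and a peak of any class for 24 (58.5%, 42.1% to 73.7%), against 36.4%. Of 39 FGF, PDGF and VEGF ligand and receptor genes, 14 had a promoter peak (35.9%, 21.2% to 52.8%), among them Fgfr1, Fgfr2, Fgfr3, Pdgfra and Vegfa, and the interval again holds 24.6%. A gene body peak was found for 10 (25.6%, 13% to 42.1%), against 13.0% of all, and a peak of any class for 22 (56.4%, 39.6% to 72.2%), against 36.4%. For a peak of any class, the share of all genes thus lies below the interval in both families, as it does for the Wnt pathway genes. The TSS nearest to the promoter peak belongs to another gene for Bmpr1a and Fgfr3.

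Peaks are not RNA levels, so they do not check the labelled cell type; they show only which marker genes carried TET2. Of 8 adipocyte markers, 1 had a promoter peak (Lep), and Adipoq, Fabp4, Plin1, Pparg, Cebpa, Lipe and Cidec had no peak of any class. Of 6 markers of adipose stem cells, 3 had a promoter peak (Pdgfra, Dlk1 and Cd34), Ly6a had a peak at 1 to 3 kb and Pi16 a gene body peak. Thus 5 of 6 had a peak of any class (83.3%, 35.9% to 99.6%), against 36.4% of all protein-coding genes and 12.5% (0.316% to 52.7%) of the adipocyte markers. The intervals of the stem cell and adipocyte markers overlap, and each holds the share of all genes, that of the stem cell markers only just. Of 4 macrophage markers, Adgre1 had a gene body peak and none had a promoter peak, and none of 4 endothelial markers had a peak of any class. These lists are short and no test was made.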
